A study of Mus musculus with 6 samples.

Results

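TAM receptors are a family of receptor tyrosine kinases, Tyro3, Axl and Mertk, and their ligands are Gas6 and protein S, the product of Pros1. They were examined in primary cultured mouse microglia homozygous for a null allele of Fosb. The 5 genes were taken by symbol, and each had 1 probe set to which the platform table gives that symbol alone, so the members are 5 of 19938 genes with such a probe set. No probe set with several symbols held any of them.

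There were 3 arrays of fosB-null microglia, labelled G/G, and 3 arrays of wild-type microglia. The fosB-null mice were homozygous for the fosBG null allele, obtained by intercrossing heterozygous mice after 20 generations of backcrossing to C57BL/6J, and the wild-type mice were C57BL/6J. All cultures came from the cerebral cortex of mice 2 days old, were kept for 10 days before microglia were collected, and were replated for 24 h with no further treatment. FosB is a subunit of AP-1, a transcription factor induced by stimulation, and the labels name no stimulus for these cells. The allele is present in every cell of the mouse, so the cultures share it with any other cell type they hold. The labels call the arrays biological replicates but do not say whether they came from separate cultures, and the p-values measure the spread between these arrays only.

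Dying cells expose phosphatidylserine, a lipid that living cells keep on the inner face of the membrane. Gas6 and protein S bind that lipid through a vitamin K-dependent Gla domain and bind a TAM receptor at their other end, which lets a phagocyte take up the dying cell. Mertk is the member best known for uptake by microglia and other macrophages, Axl is raised in inflamed microglia, and Tyro3 is mainly a neuronal receptor in brain. Gas6 activates all TAM receptors, whereas protein S acts on Tyro3 and Mertk. TAM signalling also dampens cytokine production after Toll-like receptor and interferon signals.

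Because the deleted factor belongs to AP-1, the bases before each start site were searched for the AP-1 motif TGANTCA, the related motif TGACGTCA and the GC box GGGCGG, a motif bound by Sp1 family factors. Both strands were read over 250 bases before the start, and sequences and start sites are those of RefSeq on GRCm38.p6, where all 5 genes had 1 entry. For Axl and Tyro3 that start lies inside the gene's annotated extent, and starts further out were not searched. The last 100 bases before each start are shown, 5′ to 3′ in the direction of the gene, because they carry most of the matches. Capitals mark GC boxes on either strand. The windows are chr2:128698815-128698914, plus strand for Mertk, chr7:25788734-25788833, minus strand for Axl, chr2:119799414-119799513, plus strand for Tyro3, chr8:13494536-13494635, minus strand for Gas6 and chr16:62854207-62854306, plus strand for Pros1.
Mertk: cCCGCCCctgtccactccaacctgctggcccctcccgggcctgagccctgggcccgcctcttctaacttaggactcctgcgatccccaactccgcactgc
Axl: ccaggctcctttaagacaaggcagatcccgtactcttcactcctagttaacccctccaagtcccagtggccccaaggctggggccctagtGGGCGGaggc
Tyro3: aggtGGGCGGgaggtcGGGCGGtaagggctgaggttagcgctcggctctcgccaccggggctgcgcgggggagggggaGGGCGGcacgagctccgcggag
Gas6: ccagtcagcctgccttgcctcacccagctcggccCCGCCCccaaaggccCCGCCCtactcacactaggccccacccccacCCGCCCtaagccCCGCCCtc
Pros1: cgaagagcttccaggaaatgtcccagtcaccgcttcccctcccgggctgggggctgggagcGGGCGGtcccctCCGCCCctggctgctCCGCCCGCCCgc

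Neither TGANTCA nor TGACGTCA occurred in the 250 bases before the 5 start sites searched. Among 21262 promoters of protein-coding genes, 6.13% held TGANTCA and 1.92% held TGACGTCA in a window of the same length, so most promoters hold neither. The GC box was found in all 5 windows, against 42.6% of those promoters. There were 3 matches for Mertk, 1 for Axl, 3 for Tyro3, 4 for Gas6 and 5 for Pros1, and 2 of the Pros1 matches overlapped. At least 3 matches were present in 4 of the 5 windows and in 11.6% of the promoters of protein-coding genes. The windows were 54.8% to 73.2% G and C, against a median of 55.6%, and the part of base composition in the matches was not tested. A match or its absence says only which letters stand in this window.

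The arrays carried the markers of the labelled cell. All 9 measured microglial markers of 10 lay above the median of all probe sets, and Fcer1g, Tyrobp and Csf1r were the brightest. Their summed signal on the linear scale ran from 55991 to 60056 in fosB-null arrays and from 54753 to 60052 in wild-type arrays. Of markers of other cells, 3 of 10 astrocyte, 4 of 9 oligodendrocyte lineage, 1 of 9 neuronal, 4 of 8 fibroblast and mural and 2 of 8 endothelial genes lay above that median. Their sums in fosB-null and wild-type arrays were 1673 to 1801 and 1673 to 1798 for astrocytes, and 3956 to 4291 and 3891 to 4667 for the oligodendrocyte lineage. They were 1241 to 1357 and 1241 to 1365 for neurons, 1568 to 1691 and 1555 to 1645 for fibroblasts and mural cells, and 2601 to 3046 and 2452 to 2905 for endothelium. No array gives a value of 0 for any marker, and the table holds no detection call. The Fosb probe set had log2 signals of 7.82, 8.05 and 7.83 in fosB-null replicates 1 to 3, against 8.01, 8.14 and 7.92 in wild-type replicates 1 to 3. These values do not test the labels, because no source used here places the probe set inside or outside the mutated stretch of the gene.

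Arrays with the same number are paired in their values. In each same-numbered pair 45.2% to 51.3% of all probe sets held exactly the same value, which is no measurement of equality, and the members are therefore given array by array and pair by pair. Each difference below is a log2 difference, fosB-null minus wild-type. Its standard error and 95% interval come from a limma fit over all tested probe sets. That fit leaves the pairing out, unless a block is named. Signals of the members are not compared with one another, since probe sets differ in how they respond. Brightness ranks, places against the median of all probe sets and summed marker signals share that limit.

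None of the 5 members passed the test. The adjusted p, by Benjamini-Hochberg over 23410 probe sets in the limma fit, was 1 for each, and the unadjusted p ranged from 0.296 to 0.936. In that fit 1 of the 23410 probe sets, or 0.00427%, passed, and 0.722% had an unadjusted p under 0.05. With the replicate block the members' unadjusted limma p ranged from 0.161 to 0.608, and with a random block from 0.0298 to 0.676. In those fits 2.31% and 9.65% of tested probe sets fell under 0.05 unadjusted, and 0 members passed the adjusted threshold. The 2 groups of arrays overlapped for every member, as they did for all but 1.12% of tested probe sets. A tied pair forces such an overlap, as for Mertk and Tyro3. The group means of 4 members were higher in fosB-null microglia and that of Tyro3 was lower, whereas of all tested probe sets 30.9% had a higher mean in fosB-null, 41.3% a lower one and 27.8% an equal one. The median difference of the members was 0.05, beside 0.00 over all tested probe sets. All 9 measured microglial markers also had a higher mean in fosB-null, with a median difference of 0.02. A difference of at least 1.5-fold between group means was seen in 0 members and in 0.239% of tested probe sets. In bulk RNA, fewer expressing cells and less RNA per cell cannot be told apart.

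Mertk, the receptor most closely tied to uptake of dying cells by microglia, had nearly the same signal in both groups. Its log2 signal was 12.0224, 12.0245 and 11.8621 in fosB-null replicates 1, 2 and 3, against 12.0224, 11.9995 and 11.8665 in wild-type replicates 1, 2 and 3. The replicate 3 arrays were the low ones in both groups, and the groups overlapped. The means were 11.97 ± 0.09 in fosB-null and 11.96 ± 0.08 in wild-type arrays (SD, n = 3 each). The difference was 0.007 with a standard error of 0.082 (limma adjusted p = 1, unadjusted p = 0.936). Its interval of -0.19 to 0.20 corresponds to 0.878-fold to 1.15-fold. Within pairs Mertk differed by 0.00, 0.025 and -0.004, the first an exact tie.

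Axl, the receptor that binds Gas6 with high affinity, varied most among the arrays. Its log2 signal was 10.57, 11.18 and 10.87 in fosB-null replicates 1, 2 and 3, against 10.55, 11.02 and 10.52 in wild-type replicates 1, 2 and 3. Both replicate 2 arrays were high, and the fosB-null array was the higher one in each pair. The means were 10.87 ± 0.31 in fosB-null and 10.70 ± 0.28 in wild-type arrays (SD, n = 3 each). The difference of 0.17 was smaller than either SD, but paired arrays share part of that spread. The standard error of the difference was 0.19 without a block and 0.09 with the replicate block. The interval without a block was -0.29 to 0.64, or 0.819-fold to 1.55-fold (limma adjusted p = 1, unadjusted p = 0.401). Axl was the 1 member that was higher in all 3 pairs, by 0.02, 0.16 and 0.34, a pattern found in 2.2% of tested probe sets. Axl had 0 exact ties, and a probe set with a tied pair cannot show that pattern, which keeps the share low. Blocking on the replicate number gave an unadjusted limma p of 0.161 for Axl, and a random block on it gave 0.0298. Under 0.05 in those fits were 2.31% and 9.65% of tested probe sets. The adjusted p was 0.674 and 0.442 in those fits. Without fosB-null replicate 2 the difference was 0.02 and without wild-type replicate 2 it was 0.34. Axl is the 1 member on the chromosome of Fosb, 110 measured genes away from it, with 6.45 Mb between their starts. Whether DNA linked to the null allele reaches Axl was not tested.

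Tyro3, the third receptor, had a signal below the median of all probe sets, with 44.2% of them dimmer. With no detection call in the table, whether this probe set is above background is not known, and its fold limits describe the probe set's signal. Its log2 signal was 7.68, 7.48 and 7.45 in fosB-null replicates 1, 2 and 3, against 7.68, 7.48 and 7.49 in wild-type replicates 1, 2 and 3. The replicate 1 arrays were the high ones, and 2 of the 3 pairs were exact ties. The means were 7.54 ± 0.13 in fosB-null and 7.55 ± 0.11 in wild-type arrays (SD, n = 3 each). The difference of -0.014 had a standard error of 0.096 and an interval of -0.24 to 0.22, or 0.845-fold to 1.16-fold (limma adjusted p = 1, unadjusted p = 0.891). It came from pair 3 alone, at -0.041.

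**Figure D1:**
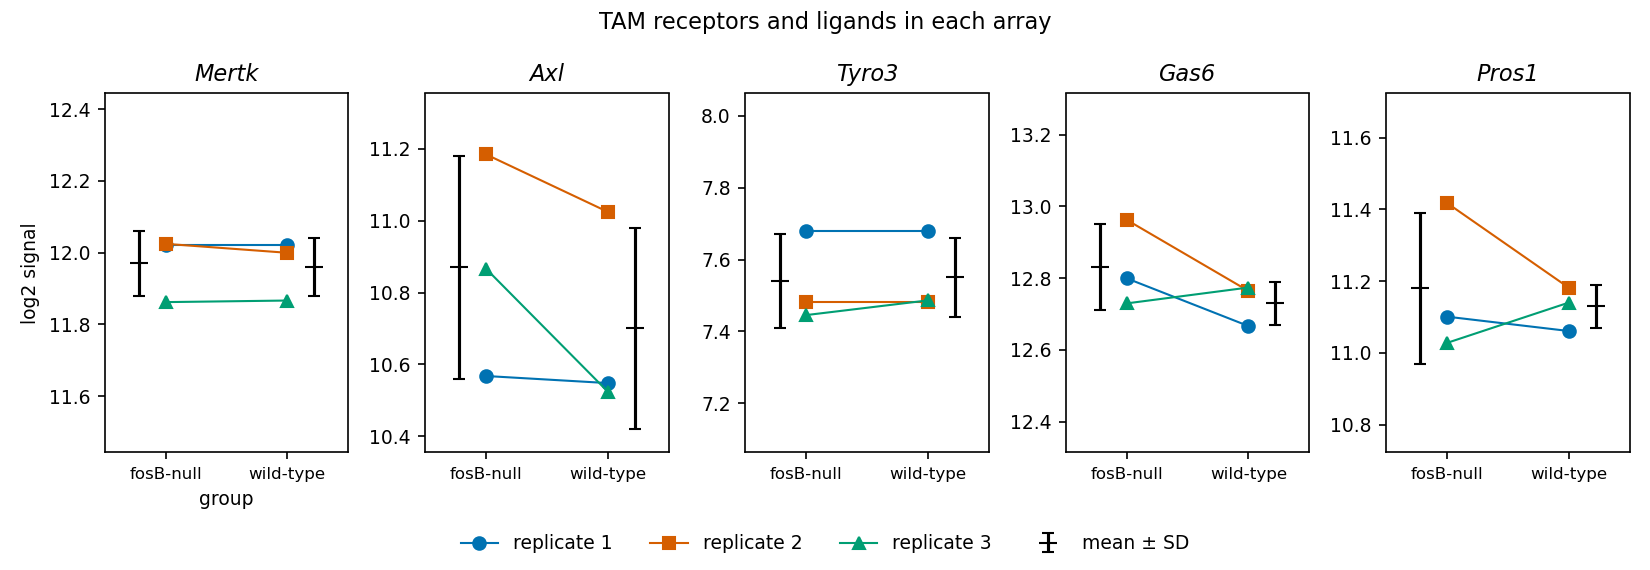
Log2 signal of the 5 members in each array, fosB-null on the left and wild-type on the right, with lines joining arrays of the same replicate number and black bars for mean ± SD (n = 3 each); every panel spans 1 log2 unit. The Axl arrays spread over 0.66 and the Mertk arrays over 0.16, and the groups overlap in every panel.

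Gas6, the ligand of all TAM receptors, had the lowest unadjusted p of the members in the fit without a block, where it did not pass the test; in both blocked fits Axl had the lowest. Its log2 signal was 12.80, 12.96 and 12.73 in fosB-null replicates 1, 2 and 3, against 12.67, 12.76 and 12.77 in wild-type replicates 1, 2 and 3. The fosB-null arrays 1 and 2 were above all wild-type arrays, and fosB-null array 3 was below 2 of them. The means were 12.83 ± 0.12 in fosB-null and 12.74 ± 0.06 in wild-type arrays (SD, n = 3 each). The difference of 0.10 had a standard error of 0.08 and an interval of -0.11 to 0.30, or 0.93-fold to 1.23-fold (limma adjusted p = 1, unadjusted p = 0.296). Within pairs it was 0.13, 0.20 and -0.04. With the replicate block the unadjusted limma p was 0.27 and the adjusted p 0.674, and with a random block they were 0.0708 and 0.587, in the fits where 2.31% and 9.65% of probe sets fell under 0.05 unadjusted. Without fosB-null replicate 2 the difference was 0.03.

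Pros1 encodes protein S, which is also an anticoagulant in plasma. Its log2 signal was 11.10, 11.42 and 11.03 in fosB-null replicates 1, 2 and 3, against 11.06, 11.18 and 11.14 in wild-type replicates 1, 2 and 3. The fosB-null group held both the highest and the lowest array. The means were 11.18 ± 0.21 in fosB-null and 11.13 ± 0.06 in wild-type arrays (SD, n = 3 each). The difference of 0.05 had a standard error of 0.11 and an interval of -0.21 to 0.32, or 0.862-fold to 1.25-fold (limma adjusted p = 1, unadjusted p = 0.644). Within pairs it was 0.04, 0.24 and -0.11, and without fosB-null replicate 2 it was -0.06.

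**Figure D2:**
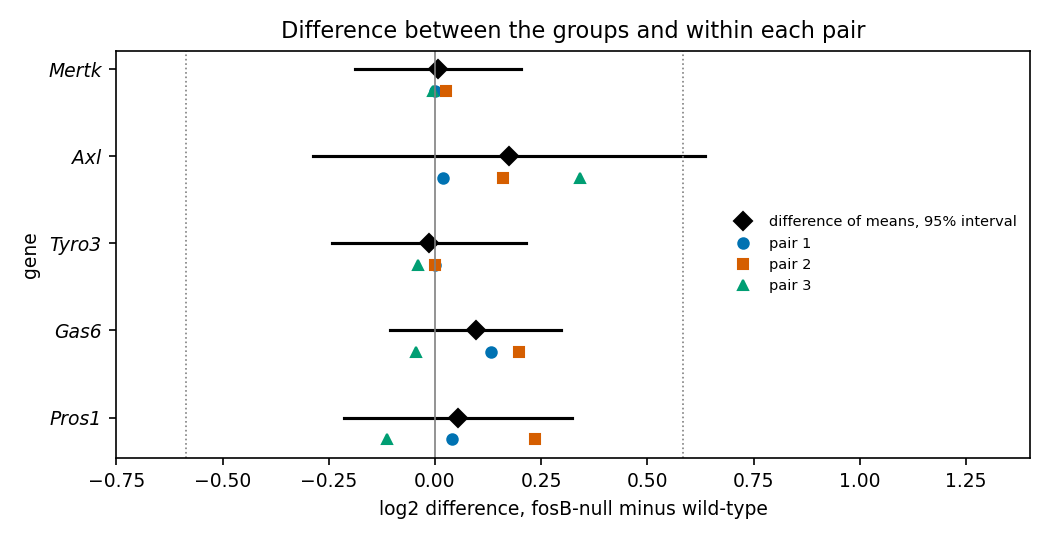
Log2 difference, fosB-null minus wild-type, of each member: diamonds and lines are the difference of group means with its 95% limma interval, coloured points the 3 pairs, and dotted lines a 1.5-fold difference. All 5 intervals include 0, and the Axl interval, up to 0.64, is the 1 that reaches beyond 1.5-fold.

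The fosB-null replicate 2 array had the highest signal of the 6 for Mertk, Axl, Gas6 and Pros1. It lay 0.06, 0.40, 0.18 and 0.26 above each gene's mean over all arrays, whereas for Tyro3 it lay 0.06 below. The median of all probe sets was also highest in that array, at 7.92, against 7.76 to 7.89 in the other arrays of both groups. The microglial, endothelial, and fibroblast and mural sums were highest there too, the microglial one at 60056 against 60052 in wild-type replicate 2. The oligodendrocyte lineage and neuronal sums were highest in wild-type replicate 2, and the astrocyte sum in fosB-null replicate 3. The part of the array medians and marker sums in the members' values was not tested.

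Likeness of pattern was measured as the root mean square difference between gene-centred log2 values over the 6 arrays, for members whose SD over the arrays was at least 0.1. Mertk and Gas6 did not reach that SD. The genes nearest to Axl were Myo18b at 0.08, Calcrl at 0.09 and Hs3st2 at 0.09, set against 0.26 for Axl about its own mean. Those nearest to Pros1 were Speg at 0.02, Itgb2l at 0.03 and Pccb at 0.03, against 0.13 for Pros1. Those nearest to Tyro3 were Sprr3, Lrrc36 and Asprv1, each at 0.01 against 0.10 for Tyro3, and Lrrc36 and Asprv1 had a difference of 0.00 between the groups. The log2 signals of Sprr3, Lrrc36 and Asprv1 ran from 6.52 to 7.48, below the lowest array median of 7.76. Whether they are above background is not known. These points share arrays and pairs, and they are a description only.

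The wider pathway was read from 7 lists that together named 92 genes, of which 87 were measured. The lists were written with earlier results of these data known, so the shares below describe them and test nothing about them. None of the 87 passed the limma test without a block at an adjusted p of 0.05, and 2, Thbs1 and Elmo1, or 2.3%, had an unadjusted p under 0.05, beside 0.722% of all tested probe sets. With the replicate block 0 passed and 5 had an unadjusted p under 0.05, or 5.75% beside 2.31% of all. These were Elmo1, Src, Pik3r1, Atp8a1 and Cd300lb, the last named after its values were seen, and Thbs1 was not among them. With a random block 1 passed and 18 had an unadjusted p under 0.05, or 20.7% beside 9.65% of all. Of the 87, 31 had a higher mean in fosB-null, 43 a lower one and 13 an identical one, where all 23410 tested probe sets gave 7243, 9657 and 6510. The median difference was 0.00 in both. An identical mean cannot give an unadjusted p under 0.05, and such means were more frequent among all tested probe sets than among the 87. The shares under 0.05 are therefore not like for like.

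Among 12 measured TAM signalling partners and regulators 0 passed and the median difference was -0.03. The lowest unadjusted p were those of Src, a kinase downstream of TAM receptors, with a difference of -0.16 (limma unadjusted p = 0.152, or 0.0292 with the replicate block, adjusted p = 0.674), of Twist2, a repressor of cytokine genes, with -0.09, and of Pik3r1, a regulatory subunit of PI3-kinase, with 0.05 (unadjusted p = 0.0194 with the replicate block, limma adjusted p = 0.674). Src was lower in fosB-null in all 3 pairs, by -0.20, -0.19 and -0.09. Of 7 measured nuclear receptors, a class that includes the liver X receptors known to induce Mertk, 0 passed and the median was -0.01. Rxra, a partner of the liver X receptors, differed by -0.07, Nr1h3, liver X receptor alpha, by -0.13 and Pparg by -0.07. The Nr1h3 difference was -0.003 without wild-type replicate 2 and -0.24 without wild-type replicate 1 or fosB-null replicate 2.

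Of 13 measured genes of the vitamin K cycle and of other Gla proteins 0 passed, with a median of 0.00. This cycle makes the Gla residues of Gas6 and protein S. Prrg4, a membrane Gla protein, differed by 0.19, Mgp, matrix Gla protein, by 0.06, and Vkorc1l1, a vitamin K epoxide reductase, by -0.05. Leaving out wild-type replicate 1 gave Prrg4 a difference of 0.015, and leaving out fosB-null replicate 2 gave 0.044.

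Of 20 other phosphatidylserine receptors and bridging proteins 0 passed, with a median of 0.00. Thbs1 encodes thrombospondin 1, which links dying cells to Cd36 and integrins. Its log2 signal was 9.31, 8.53 and 9.54 in fosB-null replicates 1, 2 and 3, against 10.25, 10.35 and 9.54 in wild-type replicates 1, 2 and 3. The difference was -0.92 with a standard error of 0.31 (limma adjusted p = 1, unadjusted p = 0.0212). With the replicate block the unadjusted p was 0.177. The groups touched at replicate 3, an exact tie, and Thbs1 was the 1 gene of the 87 that differed by 1.5-fold. With arrays left out its difference ranged from -1.38 to -0.474. The smallest, without both replicate 2 arrays, was less than 1.5-fold. The scavenger receptor Stab1 differed by 0.18 and Itgb3, an integrin subunit that binds the bridging protein Mfge8, by 0.12.

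Of 15 engulfment genes 0 passed, with a median of 0.00. Elmo1, which works with Dock proteins to activate Rac during engulfment, had log2 signals of 11.81, 11.88 and 11.78 in fosB-null replicates 1, 2 and 3, against 11.63, 11.71 and 11.64 in wild-type replicates 1, 2 and 3. The groups did not overlap, with fosB-null higher, as in 0.41% of tested probe sets, where an exact tie in any pair forces an overlap. The difference was 0.17 with a standard error of 0.07 (limma adjusted p = 1, unadjusted p = 0.0463). A random block on the replicate number gave Elmo1 a limma adjusted p of 0.0242, in a fit that called 0.201% of all probe sets, whereas the replicate block gave it 0.674 (unadjusted p = 0.00259). Dock2 differed by 0.13 and the lipid exporter gene Abca1 by -0.07.

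Of 12 genes for find-me and keep-away signals 0 passed, with a median of -0.003. S1pr1, a receptor for sphingosine 1-phosphate, differed by -0.17, P2ry2, a nucleotide receptor, by -0.14 and P2ry6, the UDP receptor that drives microglial phagocytosis, by 0.07. The P2ry2 difference came mostly from pair 1, with -0.41, 0.04 and -0.04 in the 3 pairs, and was -0.001 without that pair. Of 8 measured genes that control phosphatidylserine exposure 0 passed, with a median of -0.004. Atp8a1, a flippase, differed by 0.20 with groups that did not overlap, and by 0.24, 0.22 and 0.13 in the pairs (limma adjusted p = 1, unadjusted p = 0.0703, or 0.674 and 0.0142 with the replicate block). Atp11a, another flippase, differed by -0.04 and the scramblase gene Xkr8 by -0.03.

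**Figure D3:**
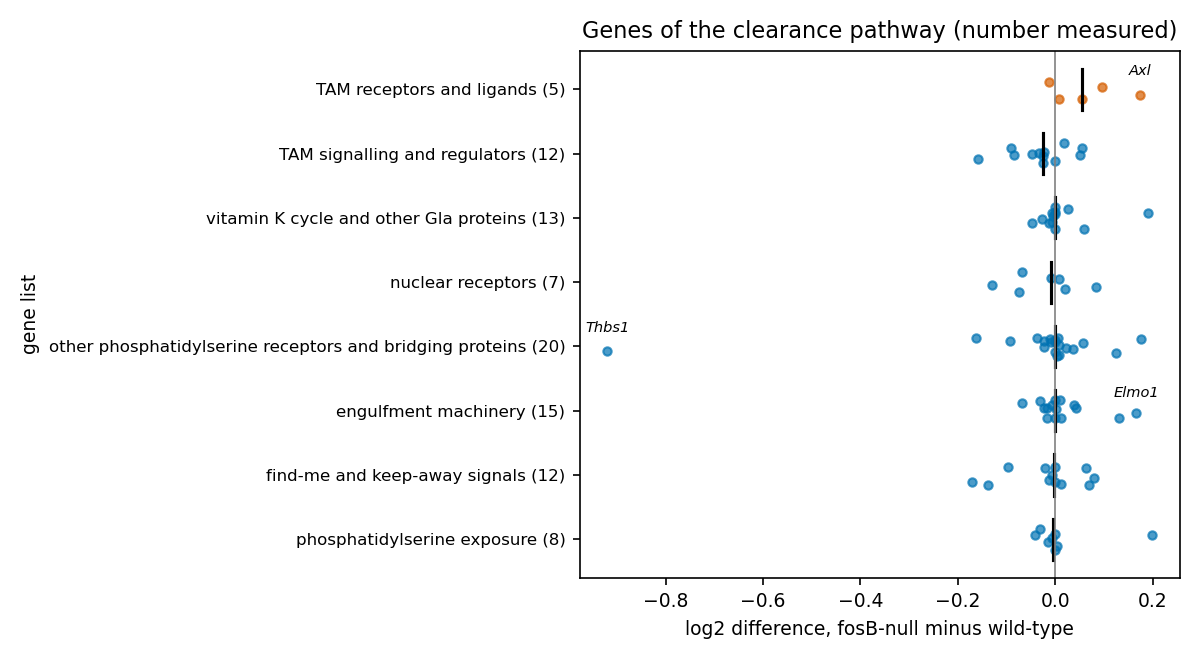
Log2 difference, fosB-null minus wild-type, of each measured gene of the TAM group and of 7 pathway lists, 1 point per gene with vertical scatter added and a black bar at the list's median. Thbs1 lies at -0.92, and all other points lie between -0.17 and 0.20.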

How the data were processed

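Total RNA (100 ng) was amplified into biotinylated sense-strand DNA and hybridised to Affymetrix whole-transcript arrays, per the labels' protocols. The deposited values are log2 signals, 1 per probe set and array. Per the submitters' processing notes they came from Affymetrix Expression Console, with version, summary method and normalization not given in the sources used here. Their range of 1.73 to 14.6 shows the log2 scale. All columns were used.

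Genes came from the platform table, with 21789 probe sets holding 1 symbol, 1621 several and 12147 none. The 23410 with a symbol were tested two-sided in R 4.3.3 with limma 3.58.1, using lmFit and eBayes without block or filter, and Benjamini-Hochberg adjustment at 0.05. Symbols were updated through RefSeq gene numbers, held for 21698 probe sets. In lists, a gene's brightest probe set stood for it. The number of arrays limits the precision.

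For numbers 1, 2 and 3, the deviations of the fosB-null and wild-type arrays from their group means correlated at 0.911, 0.821 and 0.82 over tested probe sets, so the numbers pair the arrays. The labels do not state what a number marks, and the pairing rests on these values. Fits with the number as a block were alternatives.

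The members, the 7 pathway lists and the 6 marker lists were chosen with earlier results of these data known. Named genes are the members, Fosb, the 3 genes of each pathway list with the lowest unadjusted p, the 3 brightest microglial markers and the 3 genes nearest in pattern to a member, leaving out predicted genes, small RNAs and olfactory or vomeronasal receptors.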

Additional observations from a re-analysis of the deposited data

How the results depend on the processing

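Under 20 alternatives (arrays centred on the median or quantile normalized, the dimmest 40% left out, fewer or more probe sets tested, intensity trend, robust eBayes, no moderation, array weights, replicate blocks, and arrays left out singly or as pairs) 0 members passed the adjusted threshold in limma. Axl and Gas6 stayed above wild-type in all 20, at 0.02 to 0.34 and 0.03 to 0.17. Mertk turned to -0.017 with median centring. With arrays left out, Mertk ranged from -0.041 to 0.061, Tyro3 from -0.086 to 0.052 and Pros1 from -0.063 to 0.138. Among the named pathway genes, leaving arrays out turned the sign of Abca1 (-0.160 to 0.051), Pparg (-0.127 to 0.012), Xkr8 (-0.112 to 0.057) and Vkorc1l1 (-0.078 to 0.001). It took Twist2 (-0.135 to 0.00) and Mgp (0.00 to 0.088) to 0. The other pathway genes were not followed one by one, and the cause of these changes was not tested.

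The count of probe sets passing was 1 in the fit without a block, 0 without moderation, 0 with the replicate block (541 at an unadjusted p under 0.05) and 47 with the random replicate block, and 0 to 2 with arrays left out. It was 2 without wild-type replicate 3, and 0 without both arrays of any 1 replicate number. The random replicate block called 1 pathway gene, Elmo1, and the replicate block changed no call of a member or pathway gene. The replicate block's prior degrees of freedom were 0.358, against 2.84 without it, and the random block's consensus correlation was 0.956, with exact ties among the values of both fits. With 3 arrays a group, the interval given for each member bounds what could be seen in the fit without a block.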
